A study of Mus musculus with 16 samples.

Results

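Islet RNA of 16 libraries was examined for 10 genes of the circadian clock, namely Arntl, Npas2, Cry1, Cry2, Per2, Per3, Nr1d1, Nr1d2, Dbp and Nfil3. The genes were chosen by symbol, with their levels in these libraries already known, and all 10 were found in both deposited tables, among 16815 genes that the tables share. Their levels and the differences between groups are therefore given as a description. They were part of the models fitted over all genes, but no p-value is given for them and nothing is supported with their calls.

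The libraries fall into 4 groups of 4. The first table holds Flox mice, which are homozygous for a B7-H4 gene (Vtcn1) with loxP sites around its second exon, and their littermates with the Rip-Cre transgene, Tg(Ins2-cre)25Mgn, in which the rat insulin II promoter drives Cre in β cells (cKO). Both were on a C57BL/6J background and were fed normal chow. The second table holds Flox mice without Cre that were 6 weeks old at the start of 8 weeks of high-fat diet (HFD) and then received a virus through the pancreatic duct. The virus was AAV2/8-Ctrl (Ctrl) or AAV2/8-Ins2-B7-H4 (OE), which carries B7-H4 and ZSGreen behind the rat insulin II promoter, and islets were taken 5 weeks after the infusion. No libraries of mice with Rip-Cre alone were analysed here, so Cre and loss of B7-H4 cannot be told apart. The mice lived in a 12 h light and dark cycle. Neither the labels nor the methods give the hour at which islets were isolated, and the hour of sampling and the group cannot be told apart. Libraries are named by their group and the number in their label, as Flox16, Flox17, Flox20 and Flox21, cKO8, cKO9, cKO12 and cKO38, Ctrl1, Ctrl2, Ctrl3 and Ctrl5, and OE1 to OE4. The labels do not say whether a library is 1 mouse, so the p-values given further on measure the spread between these libraries.

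The circadian clock of a mammalian cell is a loop of transcription and translation. BMAL1, the product of Arntl, pairs with CLOCK or NPAS2 at E-boxes and drives the period genes, the cryptochromes and Nr1d1 and Nr1d2. PER and CRY proteins then return to repress BMAL1 and its partners, while the REV-ERB proteins of Nr1d1 and Nr1d2 compete with ROR activators at RORE sites and repress Arntl, Npas2, Nfil3 and Cry1. DBP activates and NFIL3 represses through D-boxes. As a consequence, in peripheral tissues of mice Nr1d1, Dbp and Per3 peak in the light phase or near dusk, and Arntl, Npas2 and Nfil3 peak near dawn. In β cells the clock is known to shape insulin secretion.

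Promoter windows from 250 bases before to 50 bases after the RefSeq start site (GRCm38.p6, the patch release of mm10) were searched on both strands for 5 motifs, to show which elements of the loop stand beside the genes described here. A window was at hand for 9 of the 10 genes, and Per2 is named only. Of the 9 genes, 6 held at least 1 of the motifs, as did 5 of 9 other clock transcription factors with a window. The share of all windows with any of the 5 motifs was not counted, so nothing is read from these counts. Cry1 has the E-box CACGTG 60 bases and the related CACGTT 79 bases before its start site, and the CACGTT element is also found 166 bases before Cry2 and 28 bases before Nr1d1. Per3 has the D-box TTATGTAA at 205 and at 158 bases before its start site. The RORE core TAGGTCA lies 12 bases before the start site of Nfil3 and 31 bases after 1 of the 2 start sites of Arntl. Of all 32851 RefSeq promoter windows of this length, 7.15% hold CACGTG, 4.68% CACGTT, 0.938% TTATGTAA, 0.119% TTACGTAA (found in none of the windows of the 9 genes) and 2.61% TAGGTCA. The matches did not overlap each other, and a match is a description and not a binding site. The sequences that hold the E-box, D-box and RORE letters, apart from that of Cry2, are given 5′ to 3′ on the strand of the gene. The motif is in capitals on whichever strand it matched. They are the 250 bases before the start site of Cry1 (chr10:85185055-85185304, minus strand), Nr1d1 (chr11:98775378-98775627, minus strand), Per3 (chr4:151044666-151044915, minus strand) and Nfil3 (chr13:52981040-52981289, minus strand), and 27 bases around the motif of Arntl (chr7:113207531-113207557, plus strand), which lies in the transcribed part.
Cry1: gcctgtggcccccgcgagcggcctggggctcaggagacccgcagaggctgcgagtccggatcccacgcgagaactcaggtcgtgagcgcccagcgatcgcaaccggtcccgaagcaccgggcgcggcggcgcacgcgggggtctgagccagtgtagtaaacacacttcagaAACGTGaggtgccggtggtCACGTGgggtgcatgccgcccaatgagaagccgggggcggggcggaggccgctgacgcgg
Nr1d1: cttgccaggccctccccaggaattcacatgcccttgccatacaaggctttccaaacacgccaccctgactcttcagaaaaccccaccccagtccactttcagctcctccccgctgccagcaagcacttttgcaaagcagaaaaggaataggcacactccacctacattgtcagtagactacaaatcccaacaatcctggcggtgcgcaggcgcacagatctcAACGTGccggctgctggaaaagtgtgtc
Per3: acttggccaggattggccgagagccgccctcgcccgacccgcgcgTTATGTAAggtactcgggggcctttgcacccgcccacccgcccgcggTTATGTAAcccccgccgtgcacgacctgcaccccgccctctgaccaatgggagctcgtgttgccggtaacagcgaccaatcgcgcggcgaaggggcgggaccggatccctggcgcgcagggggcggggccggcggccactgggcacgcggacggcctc
Nfil3: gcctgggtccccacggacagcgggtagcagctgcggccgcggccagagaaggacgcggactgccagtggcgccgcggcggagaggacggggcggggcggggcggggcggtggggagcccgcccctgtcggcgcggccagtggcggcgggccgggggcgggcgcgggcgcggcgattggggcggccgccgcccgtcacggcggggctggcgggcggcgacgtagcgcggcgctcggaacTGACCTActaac
Arntl: aggcagaaagTAGGTCAgggacggagg

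The values are FPKM, read counts scaled by transcript length and by the mapped reads of the library, so levels of different genes can be compared within a table. The depth in reads is unknown, and relative depths read from the lowest values ranged from 0.942 to 1.07 of the median of their table for Flox and cKO and from 0.840 to 1.08 for Ctrl and OE. The tables were normalised separately, and levels across them are set side by side only. The insulin genes marked the tissue in every library, as Ins2 ranged from 27348 FPKM in Ctrl3 to 253857 FPKM in Ctrl1, and the 10 β-cell markers together took 4.38% to 55.1% of the summed FPKM. Markers of acinar cells, the enzyme-secreting cells of the exocrine pancreas, differed between libraries. All 19 were above 0 in every library, and their share was 25.4%, 32.5%, 9.71% and 6.75% in Flox16, Flox17, Flox20 and Flox21, against 33.2% to 42.3% in the cKO libraries. It was 5.11%, 52.3%, 66.8% and 1.99% in Ctrl1, Ctrl2, Ctrl3 and Ctrl5, against 10.3% to 13.4% in the OE libraries. In such bulk RNA, fewer cells of a type and less RNA per cell cannot be told apart, and the part of the acinar share in the values that follow was not tested apart from a model with this share as a covariate. In the first table the shares of Flox and cKO did not overlap, so there this model cannot tell the share and the group apart.

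Vtcn1, the targeted gene, was at 0.0199, 0.0603, 0.0188 and 0.216 FPKM in the Flox libraries in the order of their numbers, and at 0.0207, 0.125, 0.0202 and 0.0642 FPKM in cKO8, cKO9, cKO12 and cKO38. These values are 1 to 11 of the smallest steps in which the gene is expressed, so the deletion could not be checked at this depth. Under the Ins2 promoter it was at 40.0 to 128 FPKM in the OE libraries and at 0.0636 to 0.371 FPKM in the Ctrl libraries.

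The 10 clock genes differed widely in level. Cry2 was the most abundant in Flox, cKO and OE, with group means of 23.9 to 97.7 FPKM over the 4 groups, and Nr1d1 was the most abundant in Ctrl, with group means of 13.2 to 86.5 FPKM. In the first table Nr1d2 exceeded Nr1d1 in both groups, and Dbp exceeded it in cKO. Arntl and Npas2 were the least abundant, with group means of 0.184 to 0.762 FPKM and of 0.172 to 1.12 FPKM. In both tables the control group, and not the treated group, had the larger spread in every one of the 10 genes except Per2 in the first table. The SD on the log2(FPKM + 0.5) scale was 0.213 in Flox and 0.320 in cKO for Per2, but 1.33 in Flox and 0.136 in cKO for Dbp, for example. The acinar share also spread more in the control groups, with an SD of 12.4% in Flox, 4.18% in cKO, 32.9% in Ctrl and 1.33% in OE. How many of all genes spread more in the control group was not counted, so the wider spread is not read as particular to the clock genes.

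**Figure D1:**
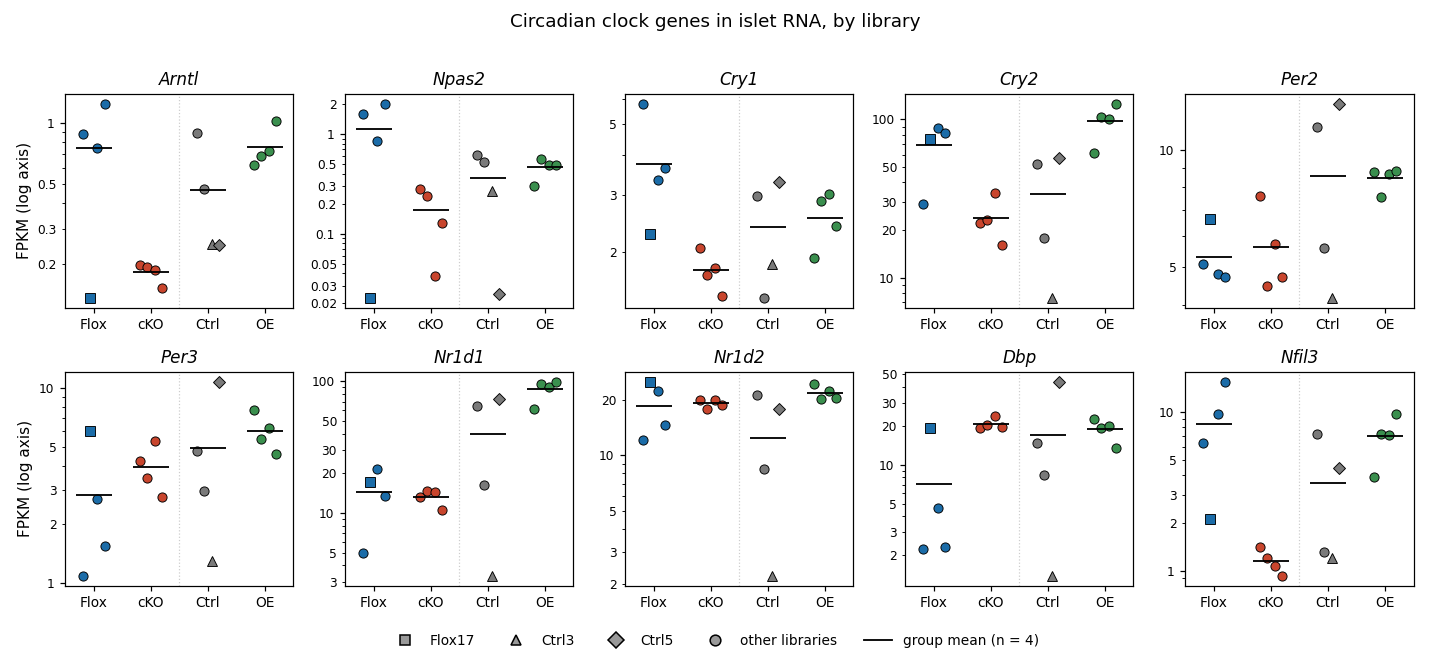
Level of each clock gene in FPKM on a log axis, with 1 point per library, in the groups Flox, cKO, Ctrl and OE, and a line at the mean of 4 libraries. Flox17 lies with the cKO libraries in Arntl, Dbp and Nfil3, and Ctrl3 is the lowest library of the second table in Cry2, Per2, Per3, Nr1d1, Nr1d2, Dbp and Nfil3.

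Among the activators of the E-box, Arntl (chr7:113207465-113314126, plus strand), which encodes BMAL1, was at 0.874, 0.137, 0.751 and 1.24 FPKM in Flox16, Flox17, Flox20 and Flox21. In cKO8, cKO9, cKO12 and cKO38 it was at 0.199, 0.195, 0.188 and 0.153 FPKM. Of the Flox libraries, Flox17 alone was below all cKO libraries, and the other 3 were above them. In the second table Arntl was at 0.888, 0.470, 0.252 and 0.251 FPKM in Ctrl1, Ctrl2, Ctrl3 and Ctrl5 and at 0.619, 0.687, 0.723 and 1.02 FPKM in OE1 to OE4, with overlap. For Arntl the log2 fold change was -0.78 ± 0.26 (SE, n = 4 per group) in cKO, from a model of every gene above 0 since its mean was below the minimum of 0.5 FPKM, and 0.42 ± 0.33 in OE.

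Npas2 (chr1:39193731-39363236, plus strand), the alternative partner of BMAL1, was at 1.58, 0.0226, 0.853 and 2.02 FPKM in the Flox libraries in the same order, and at 0.279, 0.242, 0.0380 and 0.129 FPKM in the cKO libraries. The value in Flox17 stands for 3 of its smallest steps against 121 to 274 in the other Flox libraries and 5 to 36 in the cKO libraries, up to a factor common to all libraries. As for Arntl, Flox17 was the lowest of the 8 libraries and the other Flox libraries were above all cKO libraries. It was at 0.621, 0.530, 0.270 and 0.0247 FPKM in Ctrl1, Ctrl2, Ctrl3 and Ctrl5, where the last stands for 3 steps, and at 0.303, 0.568, 0.484 and 0.494 FPKM in OE1 to OE4. In cKO the log2 fold change was -1.06 ± 0.48, and it was 0.21 ± 0.25 in OE, where the gene was under the minimum mean.

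Among the repressors of the E-box, Cry1 (chr10:85131700-85185064, minus strand), a cryptochrome, was at 5.80, 2.26, 3.36 and 3.66 FPKM in the 4 Flox libraries, and at 2.06, 1.70, 1.78 and 1.46 FPKM in the cKO libraries. The groups did not overlap, and Flox17 was the Flox library nearest to cKO. In the second table Cry1 was at 2.98, 1.43, 1.83 and 3.30 FPKM in Ctrl and at 1.91, 2.87, 3.02 and 2.40 FPKM in OE, whose range lay inside that of Ctrl. Cry1 had a log2 fold change of -0.87 ± 0.22 in cKO and of 0.12 ± 0.40 in OE, and the latter turned to -0.34 once each library was divided by its median-of-ratios factor.

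Cry2 (chr2:92403646-92434043, minus strand), the second cryptochrome, did not follow this order. It was at 29.4, 75.7, 87.9 and 82.2 FPKM in the Flox libraries, against 22.1, 23.2, 34.1 and 16.2 FPKM in the cKO libraries. Here Flox16 and not Flox17 fell within the cKO range. In the second table it was at 52.2, 17.9, 7.46 and 57.2 FPKM in Ctrl and at 61.2, 104, 100 and 126 FPKM in OE, without overlap, and Cry2 was the only one of the 10 genes for which these groups did not overlap. Cry2 had a log2 fold change of -1.44 ± 0.39 in cKO and of 1.88 ± 0.56 in OE.

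Per2 (chr1:91415982-91459324, minus strand), a period gene, differed between Flox and cKO by less than its standard error. It was at 5.09, 6.65, 4.80 and 4.70 FPKM in the Flox libraries and at 7.61, 4.47, 5.71 and 4.71 FPKM in the cKO libraries. It was at 11.5, 5.58, 4.16 and 13.1 FPKM in Ctrl and at 8.75, 7.54, 8.68 and 8.80 FPKM in OE. The Ctrl libraries stood on both sides of the narrow OE range. The log2 fold change was 0.06 ± 0.20 in cKO and 0.12 ± 0.46 in OE, and the latter turned to -0.40 after scaling.

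Per3 (chr4:151003652-151044665, minus strand), a period gene with the pair of D-boxes given earlier, was at 1.09, 5.98, 2.71 and 1.56 FPKM in Flox and at 4.24, 3.44, 5.35 and 2.77 FPKM in cKO. Flox17 was above all cKO libraries and the other Flox libraries were below all of them. It was at 4.72, 2.96, 1.31 and 10.7 FPKM in Ctrl and at 7.72, 5.44, 6.22 and 4.56 FPKM in OE. Ctrl5 was above and Ctrl2 and Ctrl3 were below every OE library. Between groups Per3 had a log2 fold change of 0.60 ± 0.42 in cKO and of 0.55 ± 0.51 in OE.

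Of the repressors at RORE sites, Nr1d1 (chr11:98767932-98775333, minus strand), which encodes REV-ERBα, was at 4.95, 17.2, 21.7 and 13.5 FPKM in Flox and at 13.3, 14.7, 14.4 and 10.5 FPKM in cKO. Flox16 was the lowest and Flox20 the highest of these 8 libraries. In the second table Nr1d1 was at 65.3, 16.4, 3.32 and 72.7 FPKM in Ctrl and at 62.0, 94.5, 90.6 and 98.8 FPKM in OE. Ctrl1 and Ctrl5 stood near the OE libraries, and Ctrl2 and Ctrl3, the libraries with the largest acinar share, stood far below. The log2 fold change was 0.05 ± 0.41 in cKO and 1.86 ± 0.72 in OE.

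Nr1d2 (chr14:18204054-18239127, minus strand), which encodes REV-ERBβ, was at 12.2, 25.0, 22.3 and 14.7 FPKM in Flox and at 20.0, 17.8, 20.0 and 18.7 FPKM in cKO. The cKO libraries lay close together inside the Flox range. It was at 21.3, 8.44, 2.21 and 17.9 FPKM in Ctrl and at 24.3, 20.1, 22.2 and 20.4 FPKM in OE, with Ctrl1 alone inside the OE range. On the log2 scale Nr1d2 differed by 0.10 ± 0.20 in cKO and by 1.16 ± 0.56 in OE.

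The D-box factors had the largest log2 fold changes between Flox and cKO among the 10 genes, and with the acinar share as a covariate they were smaller in size than that of Cry2, at 0.74 for Dbp, -0.52 for Nfil3 and -0.90 for Cry2. Dbp (chr7:45705088-45710203, plus strand), an activator and a direct output of the clock, was at 2.23, 19.2, 4.61 and 2.32 FPKM in Flox16, Flox17, Flox20 and Flox21, while it stood at 19.3, 20.2, 23.8 and 19.6 FPKM in cKO8, cKO9, cKO12 and cKO38. Flox17 stood next to the cKO libraries, just below the lowest of them, and the other Flox libraries were far below. It was at 14.7, 8.34, 1.38 and 43.6 FPKM in Ctrl and at 22.7, 19.2, 19.9 and 13.4 FPKM in OE, so that Ctrl held both the lowest and the highest value. The log2 fold change was 2.00 ± 0.65 in cKO and 0.89 ± 0.69 in OE.

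Nfil3 (chr13:52967209-52981073, minus strand), the repressor at D-boxes, moved the other way in the first table. It was at 6.33, 2.12, 9.75 and 15.4 FPKM in Flox and at 1.41, 1.21, 1.08 and 0.928 FPKM in cKO, without overlap and with Flox17 nearest to cKO. It was at 7.22, 1.32, 1.21 and 4.45 FPKM in Ctrl and at 3.90, 7.23, 7.20 and 9.72 FPKM in OE. Ctrl2 and Ctrl3 were below every OE library and the other Ctrl libraries were inside the OE range. Nfil3 thus had a log2 fold change of -2.16 ± 0.53 in cKO and of 1.12 ± 0.51 in OE.

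**Figure D2:**
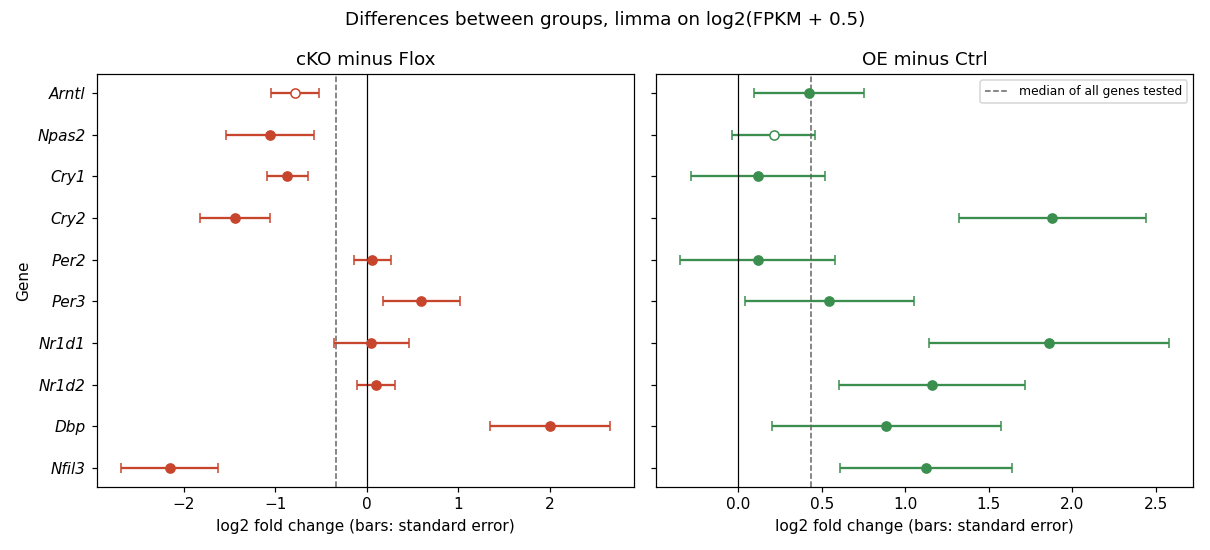
Log2 fold change of each clock gene with its standard error, in cKO against Flox and in OE against Ctrl (n = 4 libraries per group), on the log2(FPKM + 0.5) scale. The dashed line marks the median of all genes tested, -0.34 in cKO and 0.44 in OE, and open circles mark the gene in each comparison that was below the minimum mean. Dbp at 2.00 and Nfil3 at -2.16 lie farthest from 0 in cKO.

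The comparison of cKO with Flox asks what loss of B7-H4 in β cells changes in islet RNA. Genes were called in limma where the Benjamini-Hochberg adjusted p was under 0.05 and the log2 fold change was beyond 1 in either direction. Of the 9 clock genes that could be tested, 2 were called, Cry2 and Nfil3, both lower in cKO, where 1.31% of all 11804 genes were called in either direction, 0.339% were called higher and 0.974% lower. The genes were chosen with this comparison known, so nothing is read from that count. The call of Cry2 was met in 7 of 17 alternative models and that of Nfil3 in 7 of 17, and neither was met with the acinar share as a covariate. Levels without overlap between the groups were seen for Dbp on the higher side, where 1.32% of all genes had none, and for Cry1 and Nfil3 on the lower side, where 15.4% had none. The median of all genes tested was shifted by -0.34, and relative to this median Per2, Nr1d1 and Nr1d2 differed by 0.40, 0.39 and 0.44, Per3 by 0.94 and Dbp by 2.35, and Cry1, Cry2 and Nfil3 by -0.53, -1.10 and -1.82. Median-of-ratios scaling changed the sign of none of the 9, and after it the groups did not overlap in 0 clock genes on the higher side and in Cry1 and Nfil3 on the lower side, where 6.86% and 7.66% of all genes did not.

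Flox17 stood apart from the other Flox libraries in most of these genes, and the size of these differences changed when it was left out. It lay outside the range of the other Flox libraries in 8 of the 10 genes, all but Cry2 and Nr1d1, and nearer to the cKO mean than to the mean of the other Flox libraries in 9 of 10, all but Cry2. Of all genes tested, 76.9% lay outside that range and 79.1% lay nearer to the cKO mean, so neither place was particular to the clock genes, and of the 10 other clock transcription factors tested 5 lay nearer. Flox17 was singled out after these values were seen, so the values without it restate its place. Without it, the log2 fold changes of Arntl, Npas2, Cry1, Cry2 and Nfil3 were -1.08, -1.53, -1.06, -1.35 and -2.65, that of Dbp was 2.64 and that of Per3 was 0.99. Arntl and Npas2 reached the minimum mean only through the Flox libraries. The groups then did not overlap for Per3 and Dbp on the higher side, where 2.63% of all genes had no overlap, nor for Arntl, Npas2, Cry1 and Nfil3 on the lower side, where 51.7% had none. The acinar share was 32.5% in Flox17 and 6.75% to 25.4% in the other Flox libraries. Flox16, with an acinar share of 25.4%, had the lowest Per3, Nr1d1, Nr1d2 and Dbp of the 4 Flox libraries.

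The comparison of OE with Ctrl asks what added B7-H4 changes in islets of HFD-fed mice. None of the 9 clock genes that could be tested was called by limma, where 0.033% of all 12132 genes (4 genes) were called and 778 had an unadjusted p under 0.05. All 9 fold changes were above 0, but the median of all genes was 0.44, and Arntl, Cry1 and Per2 were below this median. Relative to it, Cry2 and Nr1d1 differed by 1.44 and 1.42, Nr1d2 and Nfil3 by 0.72 and 0.69, Dbp by 0.45, Per3 by 0.11, Arntl by -0.01, and Cry1 and Per2 by -0.32. The OE and Ctrl libraries did not overlap in Cry2, where 5.61% of all genes were higher and 0.964% lower without overlap, 6.58% in all. After median-of-ratios scaling they did not overlap in Cry2, Nr1d1 and Nr1d2 on the higher side, where 11.9% of all genes had none, and in Per2 on the lower side, where 6.82% had none. Without Ctrl3, the library with 66.8% acinar markers and 4.38% β-cell markers, the groups did not overlap in Cry2 alone of the 10 genes, where 5.65% of all genes were higher and 1.37% lower without overlap, and without Ctrl5 this was again so of Cry2 alone, where 14% were higher and 1.16% lower. Without Ctrl3 the fold changes of Nr1d1, Nr1d2 and Dbp were 0.98, 0.53 and 0.07.

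Arms of the loop were compared within each library, where scaling moves a difference between genes only through the pseudocount (the index difference of 1.78 given here became 1.87 after scaling). The dusk minus dawn index is the mean log2(FPKM + 0.5) of Nr1d1, Nr1d2, Dbp, Per2 and Per3 less that of Arntl, Npas2, Cry1 and Nfil3. It was 0.405, 3.41, 1.57 and 0.485 in Flox16, Flox17, Flox20 and Flox21 and 3.19, 3.12, 3.50 and 3.18 in cKO8, cKO9, cKO12 and cKO38. Flox17 was within the cKO range and the other 3 Flox libraries were below it. The mean was 1.47 ± 1.40 (SD, n = 4) in Flox and 3.25 ± 0.174 in cKO, a difference of 1.78, which became 2.43 without Flox17 and 0.56 with the acinar share as a covariate. The acinar shares of Flox and cKO did not overlap, so this covariate cannot be told apart from the group. In the second table the index was 2.73, 2.50, 1.17 and 3.90 in Ctrl1, Ctrl2, Ctrl3 and Ctrl5 and 3.46, 2.90, 3.01 and 2.70 in OE1 to OE4, with means of 2.58 ± 1.12 and 3.02 ± 0.322. The Ctrl libraries lay on both sides of the OE libraries, and the difference of 0.44 became -0.03 without Ctrl3, 0.88 without Ctrl5 and -0.13 with the acinar covariate.

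**Figure D3:**
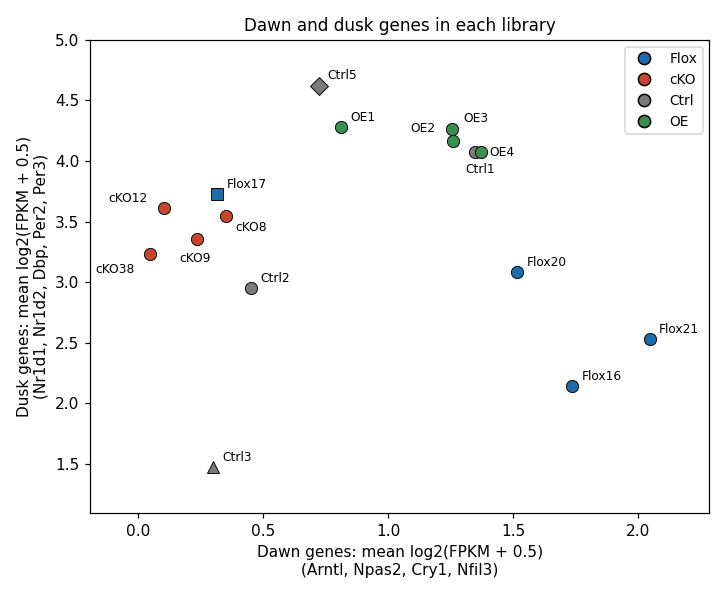
Mean log2(FPKM + 0.5) of the dawn genes on the x axis and of the dusk genes on the y axis, with 1 point per library and colours by group. Flox17 lies among the 4 cKO libraries at a low dawn value of 0.318, apart from the other 3 Flox libraries, and Ctrl3 and Ctrl5 mark the lowest and highest dusk values at 1.47 and 4.62.

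The arms of activators and repressors were compared in the same way. The mean of Arntl and Npas2 less that of Cry1, Cry2, Per2, Per3, Nr1d1 and Nr1d2 was -2.04, -4.47, -3.20 and -2.20 in the Flox libraries and -3.65, -3.50, -4.01 and -3.45 in the cKO libraries. Flox17 was below every cKO library and the other 3 were above them, and the means were -2.98 ± 1.12 and -3.65 ± 0.253, a difference of -0.67 that became -0.82 after scaling and turned to 0.16 with the acinar share as a covariate. In the second table the values were -3.68, -2.80, -2.17 and -4.91 in Ctrl and -4.09, -3.99, -4.10 and -3.89 in OE, with means of -3.39 ± 1.19 and -4.02 ± 0.101, a difference of -0.63 that turned to 0.03 with this covariate. Here too the OE libraries were close together and Ctrl5 stood below and the other Ctrl libraries above them.

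The ratio of Dbp to Nfil3, the D-box activator to its competitor, spanned the widest range in the first table. It was 0.352, 9.03, 0.473 and 0.150 in Flox16, Flox17, Flox20 and Flox21 and 13.7, 16.7, 22.0 and 21.1 in the cKO libraries, which did not overlap. It was 2.04, 6.33, 1.14 and 9.80 in Ctrl and 5.82, 2.66, 2.76 and 1.38 in OE. The ratio of Nr1d1 to Arntl was 5.66, 126, 28.9 and 10.9 in Flox and 67.0 to 76.7 in cKO, and 73.5, 34.8, 13.2 and 290 in Ctrl and 97.2 to 138 in OE. In each of these ratios Flox17 and Ctrl5 were the highest of their own group. In the first table the 5 libraries with the largest acinar share had the 5 largest Dbp to Nfil3 ratios, and in the second Ctrl5, Ctrl2 and OE1 had the 3 largest ratios at shares of 1.99%, 52.3% and 13.4%, and Ctrl3 had the largest share and the lowest ratio. The part of the acinar share in these ratios was not tested.

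**Figure D4:**
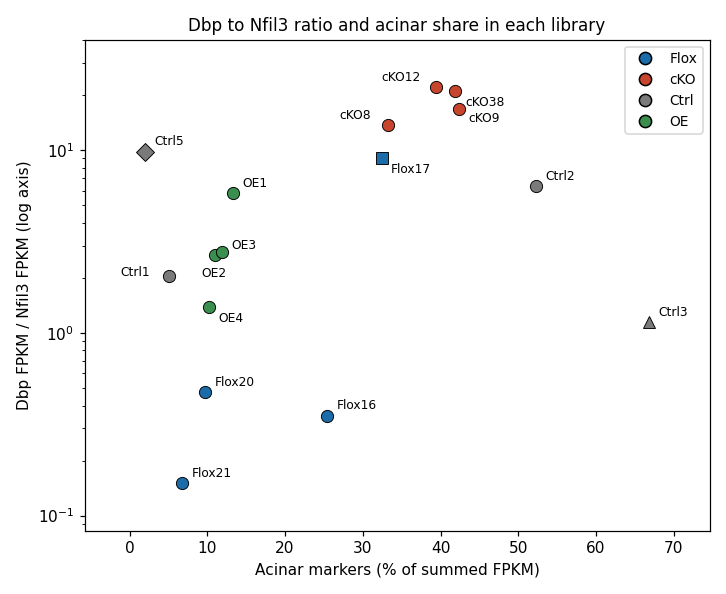
Ratio of Dbp to Nfil3 in FPKM on a log axis against the acinar marker share in percent of the summed FPKM, with 1 point per library. The 4 cKO libraries lie between 13.7 and 22.0 at shares of 33.2% to 42.3%, Flox17 lies near them, and Ctrl3 combines a ratio of 1.14 with a share of 66.8%.

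Over all 4 groups, set side by side, the mean of Arntl was in the order OE, Flox, Ctrl and cKO, and only the last step, from Ctrl to cKO, had ranges that did not overlap. For Nr1d2 the order was OE, cKO, Flox and Ctrl, and the ranges of OE and cKO just failed to overlap, at 20.07 FPKM or more in OE and 20.04 FPKM or less in cKO. Both of these steps lie between the tables, which were normalised separately. In the other 8 genes every pair of neighbours in the order of the 4 means overlapped. The share of all genes with such steps was not counted, so nothing is read from this count. Nr1d1 was highest in OE at 86.5 ± 16.7 FPKM (SD, n = 4), followed by Ctrl at 39.4 ± 34.7, Flox at 14.3 ± 7.10 and cKO at 13.2 ± 1.93.

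Of 11 other transcription factors of the clock, 10 could be tested in each comparison. In cKO 1 rose and 1 fell at an adjusted p under 0.05, where 13.8% of all genes passed (1.02% higher and 12.8% lower), and neither reached the fold minimum. Arntl2, which encodes the BMAL1 paralogue BMAL2, rose from 0.621 ± 0.118 to 1.42 ± 0.446 FPKM (log2 fold change 0.75 ± 0.20 SE, limma adjusted p = 0.0275) without overlap. Of all genes, 1.32% were higher without overlap. The change in Arntl2 ran opposite to the difference in Arntl, and its limma adjusted p was 0.0379 after median-of-ratios scaling. Clock, the partner of BMAL1, fell from 11.7 ± 2.93 to 7.04 ± 0.604 FPKM (-0.66 ± 0.20, limma adjusted p = 0.0376), where Flox17 at 7.40 FPKM was inside the cKO range, and the limma adjusted p was 0.112 after scaling. Rora, an activator at RORE sites, was lower without overlap (limma adjusted p = 0.391), as were 15.4% of all genes. Its log2 fold change of -0.19 turned to 0.14 after scaling. Tef, a D-box activator related to Dbp, had a log2 fold change of 0.65 ± 0.27 (limma adjusted p = 0.0967), with 17.6 FPKM in Flox17 against 6.06 to 9.22 FPKM in the other Flox libraries and 12.5 to 15.7 FPKM in cKO. Ciart, a repressor of the E-box activators, was at 5.11 FPKM in Flox17, at 0.357 to 0.671 FPKM in the other Flox libraries and at 0.909 to 1.81 FPKM in cKO.

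In OE none of the 10 passed at an adjusted p under 0.05, where 0.033% of all genes passed, and their limma adjusted p-values were 0.591 to 0.754. The unadjusted limma p was under 0.05 for Bhlhe40, Bhlhe41 and Ciart, as for 778 of all 12132 genes. Bhlhe41 (DEC2), a repressor at E-boxes, was at 8.22, 4.05, 1.04 and 8.78 FPKM in Ctrl and at 9.26 to 13.4 FPKM in OE without overlap (log2 fold change 1.23 ± 0.53). Of all genes, 5.61% were higher without overlap, and the fold change of Bhlhe41 was as low as 0.67 when 1 library was left out. Ciart was at 3.60, 1.13, 0.997 and 12.1 FPKM in Ctrl and at 8.85 to 15.4 FPKM in OE (1.79 ± 0.57), and Per1, the third period gene, at 17.8, 6.80, 3.85 and 33.7 FPKM in Ctrl and at 18.9 to 31.1 FPKM in OE (1.16 ± 0.56). The median of all genes was 0.44. After scaling, Bhlhe40, Bhlhe41, Ciart and Per1 had log2 fold changes of 0.70, 0.77, 1.36 and 0.64.

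**Figure D5:**
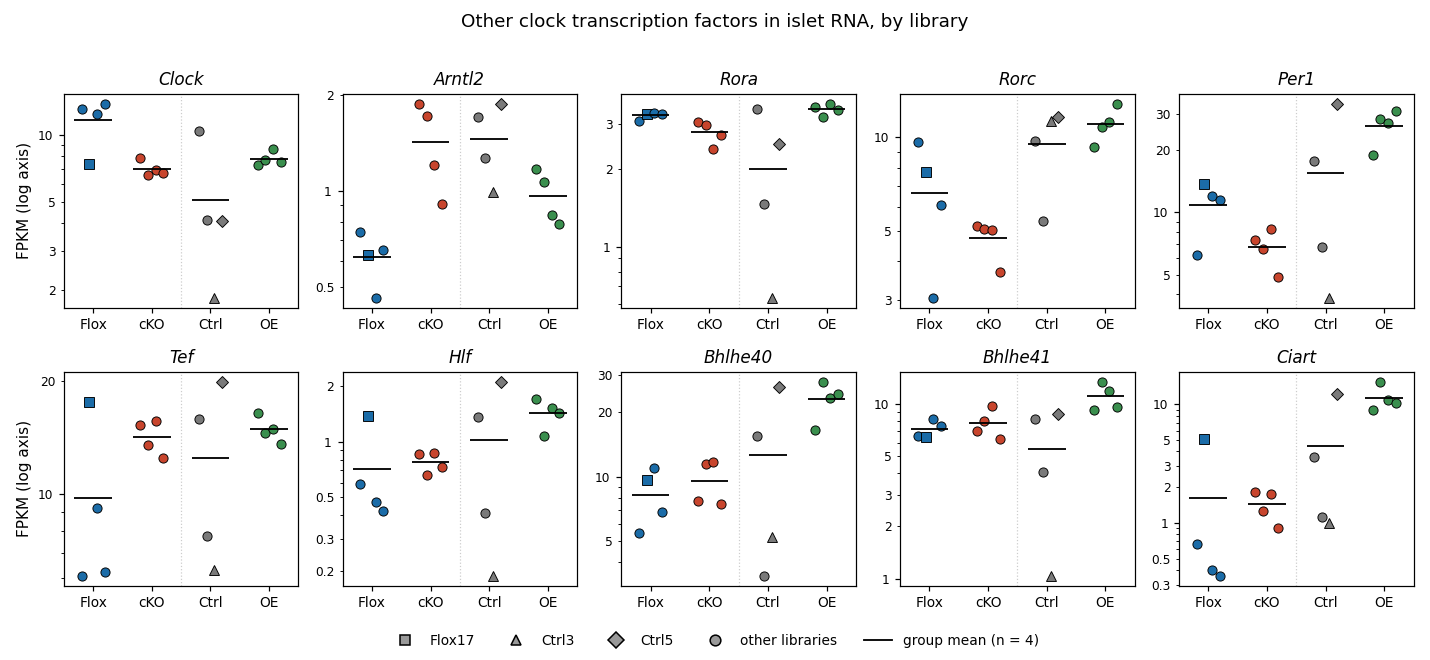
Level of 10 other transcription factors of the clock in FPKM on a log axis, with 1 point per library and a line at the mean of 4 libraries. For Arntl2 all points of cKO lie above all points of Flox, and in Tef, Hlf and Ciart Flox17 is the highest of the 8 libraries of the first table.

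Of 10 kinases and ubiquitin ligases that set the pace of the clock, 9 were tested in cKO. Of these 1 fell at an adjusted p under 0.05, where 12.8% of all genes fell. This gene was Fbxw11, a ligase that marks PER proteins for degradation (-0.62 ± 0.19, limma adjusted p = 0.0397), which also did not overlap, with a limma adjusted p of 0.0781 after scaling. The kinase Gsk3b did not overlap either and missed the threshold, with a log2 fold change of -0.43 (limma adjusted p = 0.0873). Of all genes, 15.4% were lower without overlap. The median of the 9 was -0.37, beside -0.34 for all genes. In OE none of the 10 passed, and 9 of the 10 log2 fold changes were above 0. Their median was 0.73, beside 0.44 for all genes. Prkaa2, a catalytic subunit of AMP-activated kinase, was higher without overlap, as were 5.61% of all genes. Its log2 fold change turned to -0.01 after scaling.

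Of 15 genes listed as clock outputs, 14 were tested in cKO. Of these 3 fell and none rose at an adjusted p under 0.05, where 12.8% of all genes fell and 1.02% rose. Nampt, which makes the NAD precursor that couples the clock to metabolism, fell from 10.8 to 5.28 FPKM (-0.94 ± 0.20, limma adjusted p = 0.0162), Klf9, a glucocorticoid-induced repressor, from 43.3 to 22.7 FPKM (-0.92 ± 0.20, limma adjusted p = 0.0162), and Herpud1, of the unfolded protein response, from 191 to 126 FPKM (-0.59 ± 0.15, limma adjusted p = 0.0226). After scaling Nampt kept an adjusted p of 0.0313, and those of Klf9 and Herpud1 were 0.141 and 0.597 in limma. Nampt, Herpud1, Tsc22d3, Coq10b and Tfrc were lower without overlap, as were 15.4% of all genes, and Klf9 overlapped. The median of the 14 was -0.52. In OE none of 14 passed and Klf9, at 7.03 to 20.5 FPKM in Ctrl and 32.1 to 46.3 FPKM in OE, was the 1 output gene without overlap (1.56 ± 0.46, limma adjusted p = 0.591). Of all genes, 5.61% were higher without overlap in OE.

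Genes that answer to temperature, glucocorticoids and stimulation, which are known to act on clock genes, were counted in the same libraries. Of 10 genes that respond to temperature, 3 were called lower in cKO, the chaperone genes Hsph1, Hsp90aa1 and Hspa8 (median log2 fold change of the 10 -0.82, beside -0.34 for all genes), where 0.974% of all genes were called lower. Of the 10, 8 had negative log2 fold changes, and Cirbp and Rbm3 had positive ones. Of 14 genes that glucocorticoids induce, 12 were tested and 1, Cdkn1a, was called lower (median -0.55). In cKO 10 of the 12 had negative and 2 positive log2 fold changes, and 3 were lower without overlap, where 15.4% of all genes were. In OE 13 were tested, and 3 were higher and 2 lower without overlap, where 5.61% and 0.964% of all genes were. The genes named here were named after their values were seen. None of 12 tested immediate early genes passed in cKO (median -0.08), and none of the genes of these 3 lists passed in OE. All 19 acinar markers had positive log2 fold changes in cKO (median 1.41) and negative ones in OE (median -0.37), and none of the 19 passed in either comparison. Whether these genes take part in the differences of the clock genes was not tested.

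Genes with a course across the libraries most like the dusk minus dawn index were sought among 11545 genes tested in both tables, as the mean of the 2 Pearson correlations over the 8 libraries of each table, after each library was centred on its median. Genes other than the 10 clock genes with the highest mean were Ccdc24, Sez6l2, 1110025M09Rik, Hmgn2 and Rnf167, at 0.911 to 0.873. The lowest were 1700019D03Rik, Stt3b, Zfp324, Cdk2ap2 and Trmt44, at -0.897 to -0.888. The 8 libraries of a table share their groups and the acinar share, so these values are a description. The other clock factors were not at the top of this order. Bhlhe41 came at place 165, Ciart at place 224 and Tef, with 0.986 in the first table and -0.25 in the second, at place 1434, and Clock at place 292 from the bottom.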

How the data were processed

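Islet RNA was sequenced on the Illumina NovaSeq platform, per the labels. The values are FPKM, calculated by the authors before they deposited 2 tables, 1 for each pair of groups, with mm10 as the build of the submitters' processing notes. The aligner and counter are not given in the sources used here, and strand is not stated. Genes whose mean reached 0.5 FPKM were tested on log2(FPKM + 0.5) within each table in R 4.3.3 with limma 3.58.1 (trend, robust fitting, two-sided, Benjamini-Hochberg over all genes tested), and called where the adjusted p was under 0.05 and the log2 fold change beyond 1 in size, as in the study. Fold changes on this scale understate those of low genes. The test was checked on simulated data in which each gene varied independently, which does not cover shifts common to many genes of a library. In that check fewer of the changed genes were recovered for OE and Ctrl than for cKO and Flox, so a gene not called in OE may still differ. Shares of marker lists are their summed FPKM over all FPKM of a library. Gene positions are from GENCODE M21. The 10 genes and all lists were chosen with earlier results of these data known. Named beside the 10 clock genes were Vtcn1, genes of 3 clock lists that passed or did not overlap, and the 5 most and least alike genes; Tef, Ciart, Per1 and Bhlhe40 were named after their values were seen. One gene of these lists is not reported here. Alternatives are in the closing section.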

Additional observations from a re-analysis of the deposited data

Results flagged for a closer look

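Each of the 10 clock genes and both within-library indices were examined in each group for a library far from the other 3 of its group, by the gap to the nearest library over the range of the group (Dixon). Of 48 sets of 4 libraries, 2 passed the limit, and since chance passes about 1 in 20 2 of 48 is near the number that chance gives. Dbp was at 19.2 FPKM in Flox17 and at 2.23 to 4.61 FPKM in the other Flox libraries. Per2 was at 7.54 FPKM in OE2 and at 8.68 to 8.80 FPKM in the other OE libraries, a narrow range.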

How the results depend on the processing

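The number of genes called between cKO and Flox was 155, and it was 84 at a pseudocount of 1, 307 at a pseudocount of 0.1, 36 after median-of-ratios scaling, 272 without trend and robust fitting, 699 with the 3 libraries per group of the study's heatmaps, 1631 without a fold minimum, and 0 in limma both with every gene above 0 and with the acinar share as a covariate (with 5539 and 985 genes at an unadjusted p under 0.05). It was 18 to 507 without 1 library (491 without Flox16, 507 without Flox17, 47 without Flox20, 44 without Flox21, 18 without cKO9, 60 without cKO38). With the replicate block it was 268. Libraries with the same replicate number in their titles showed little common deviation (correlations of -0.215 to 0.122 in cKO and Flox and of -0.132 to 0.102 in OE and Ctrl, 1 of 8 pairs with its best match). So few pairs cannot decide whether the libraries are paired. Between OE and Ctrl 4 genes were called, 10 with every gene above 0, 258 with the acinar covariate and 4 to 5 without 1 library. With the acinar covariate the dusk minus dawn index differed by 0.558 between cKO and Flox and by -0.127 between OE and Ctrl, and the activator minus repressor arm by 0.163 and 0.0295. The acinar shares of Flox and cKO did not overlap, so between these groups the covariate cannot be told apart from the group. Without 1 library the index differed by 1.43 to 2.43 and by -0.0253 (without Ctrl3) to 0.885, and the arm by -1.17 to -0.360 and by -1.14 to -0.222. Scaling turned Rora to 0.137 and, in OE, Prkaa2 to -0.0149, and the covariate turned Gsk3b to 0.0130. The cause of these changes was not tested. Of the clock genes, Cry1, Cry2, Dbp, Nfil3 and Per3 kept their sign in cKO in all 17 alternatives and Arntl in the 7 that could be run, but with the acinar covariate Nfil3 shrank from -2.16 to -0.52, Dbp from 2.00 to 0.74, Per3 from 0.60 to 0.09 and Npas2 from -1.06 to 0.0099. The calls of Cry2 and Nfil3 in cKO were met without Flox17 and, for Cry2, without Flox16, and lost without any of the other libraries (and without Flox16 for Nfil3). Of the 6 pathway genes that passed in cKO, Nampt, Klf9 and Herpud1 passed in 12 of 17 alternatives each, Arntl2 in 11, and Clock and Fbxw11 in 8. All 6 were lost with every gene above 0, with the acinar covariate and without cKO9, and the highest limma adjusted p over the lost alternatives was 0.577 for Arntl2 and 0.926 for Fbxw11. Leaving out cKO38 lost all but Arntl2, leaving out Flox20 lost all but Klf9 and Herpud1, and leaving out Flox21 or cKO12 lost Arntl2, Clock and Fbxw11. In OE 1 clock gene, Cry2, was called in 1 alternative, the acinar covariate. The unknown depth in reads leaves Arntl, Npas2 and Vtcn1 the least certain.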
